A study of Homo sapiens with 12 samples.

Results

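The constitutive proteasome is encoded by genes whose names begin with PSMA, PSMB, PSMC and PSMD. All genes with such a name followed by a number were taken as members, leaving out PSMB8, PSMB9, PSMB10 and PSMB11, which encode the inducible or tissue-restricted catalytic subunits. This gave 35 of the 60591 genes in the count table. Of these, 34 were among the 19108 genes that passed the filter on low counts and were tested. PSMA8, which encodes an alpha subunit known from the testis, was below the filter and had 0 reads in all 12 libraries, whose detection limit of 3 reads lay between 0.116 and 0.168 CPM (counts of a gene per 1000000 counts of the library).

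RNA sequencing had been performed on PC9 and H1650 cells, which are established non-small cell lung cancer lines that carry an activating deletion in EGFR. The 6 groups were each line at T0 (0 h, 0.1% DMSO), each line after 36 h of erlotinib at 10 μM, and each line after 36 h of osimertinib at 0.1 μM, with 2 libraries in every group. Erlotinib and osimertinib are inhibitors of the EGFR kinase, the first reversible and the second covalent, and their doses differed. T0 cells were collected when the drugs were added, and no library of 36 h in vehicle was analysed here, so that drug and time in culture cannot be told apart. The labels call both lines wild type in genotype, give every library as polyA RNA from cells in RPMI with fetal bovine serum, and do not say whether the libraries of a group came from separate cultures. The p-values therefore measure the spread between these libraries, which may be technical. Each line stands for a single tumor cell population, and a fall in bulk RNA cannot separate fewer cells of a kind from less RNA per cell.

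Total counts ranged from 17961765 to 26346187 per library. Mitochondrial genes took 4.36% to 5.36% of the counts in the 4 T0 libraries and 5.77% to 7.20% in the 8 drug libraries, and the part of this shift in the changes below was not tested. The epithelial label was borne out for 5 of 5 markers, with EPCAM between 199 and 541 CPM and KRT8 between 2067 and 4280 CPM. The 4 leukocyte markers were all below the filter and summed to at most 1.28 CPM in any library. The 3 endothelial markers summed to at most 5.55 CPM. Of 4 fibroblast markers, COL1A2 and DCN were below the filter, and the list summed to between 18.4 and 45.9 CPM in PC9 and between 10.1 and 14.8 CPM in H1650, nearly all of it from COL1A1.

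The 26S proteasome degrades proteins that carry ubiquitin chains. Its 20S core is a barrel of outer alpha rings, which gate the entry, and inner beta rings, in which PSMB5, PSMB6 and PSMB7 cut the substrate and the other beta subunits form the wall. The 19S particle caps the barrel. Its base holds the PSMC ATPases, which unfold the substrate, together with PSMD1 and PSMD2, the large scaffolds, and PSMD4, a ubiquitin receptor. Its lid holds PSMD14, the enzyme that removes the ubiquitin chain, and further structural PSMD subunits. PSMD5, PSMD9 and PSMD10 carry the same prefix but are chaperones that help to assemble the base and are not part of the finished particle. Transcription of the subunit genes is known to be coordinated, and NRF1 (NFE2L1) raises it when proteasome activity is blocked.

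Most subunit genes fell after EGFR inhibition, and the fall was deeper in PC9 than in H1650. The summed level of the 35 genes in PC9 was 7235 and 7414 normalized CPM at T0, 3138 and 3227 CPM with erlotinib, and 3202 and 3502 CPM with osimertinib. In H1650 the sum was 4717 and 4696 CPM at T0, 3364 and 3510 CPM with erlotinib, and 3834 and 3777 CPM with osimertinib. Both libraries of every drug group lay below both T0 libraries of the line. The mean sum was 0.435 and 0.458 of T0 in PC9 and 0.730 and 0.809 of T0 in H1650, for erlotinib and osimertinib in that order. PSMD2 alone was a large part of the PC9 sum, and over the other 34 genes PC9 kept 0.487 and 0.510 of T0 and H1650 kept 0.734 and 0.812. The subunit genes took 0.686% and 0.697% of all counts in PC9 at T0 and 0.317% and 0.322% with erlotinib.

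**Figure D1:**
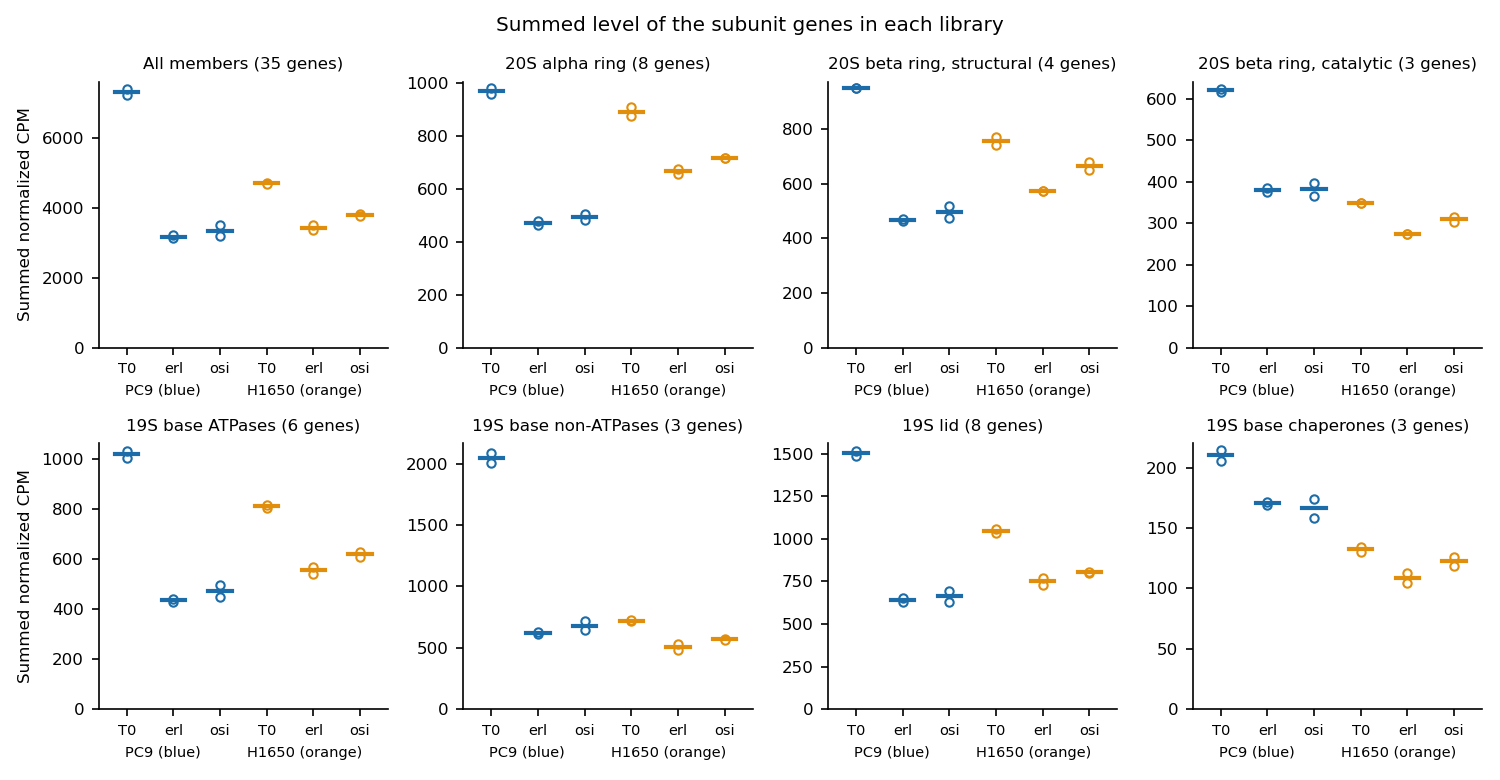
Summed normalized CPM (vertical axes, from 0) of all 35 genes and of each subcomplex in each library, for T0, erlotinib (erl) and osimertinib (osi) in PC9 (blue) and H1650 (orange). Open circles are libraries and bars are group means (n = 2); every drug library lies below both T0 libraries of its line in every panel, and the panel of 19S base non-ATPases has the deepest fall in PC9.

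Each gene was then tested with edgeR's quasi-likelihood method and Benjamini-Hochberg adjustment over all 19108 genes, with an adjusted p under 0.05 taken as a change. In PC9 with erlotinib, 33 of 34 tested members fell, against a background of 29.1% of all tested genes that were called lower, and 15 of them fell by more than 2-fold, against 13%. With osimertinib 31 of 34 fell, against 28.7%, and 13 by more than 2-fold, against 13%. In H1650, 30 of 34 fell with erlotinib, against 18.5%, and 21 of 34 with osimertinib, against 17.9%. These 21 were unevenly spread, with 6 of 6 base ATPases, 2 of 3 base non-ATPases and 8 of 8 lid genes. From the core came 3 of 7 alpha, 1 of 4 structural beta and 1 of 3 catalytic genes, and 0 of 3 base chaperones were called. None of the members fell by more than 2-fold in H1650, where 2.63% and 2.43% of all tested genes did. No member was called higher in any of the 4 comparisons, by edgeR or by DESeq2, and at an unadjusted p under 0.05 the count of higher members was also 0 in each. Of all tested genes, 32.7%, 32.7%, 18% and 17.8% were called higher. DESeq2 called 32, 31, 30 and 20 members lower in the same order. The median log2 fold change of the members was -0.96, -0.90, -0.38 and -0.29, beside 0.07, 0.06, 0.01 and 0 over all tested genes.

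The fall was shared by most members and not carried by a few. Altogether 20 of 34 members were called lower in all 4 comparisons, a pattern met by 9.16% of all tested genes, and these 20 included all 6 ATPases of the base and all 8 lid subunits. A further 11 fell in 3 of the 4, a pattern whose share over all tested genes was not counted. Of these, 10, all but PSMA1, missed the threshold only in H1650 with osimertinib. PSMA2 and PSMA6 were called lower in PC9 with erlotinib and in no other drug comparison, and PSMD9 was called in none. The alpha ring calls in PC9 with erlotinib had adjusted p-values of up to 0.047 (edgeR), close to the threshold. The 4 comparisons are not independent, since both drugs of a line were set against the same T0 libraries.

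**Figure D2:**
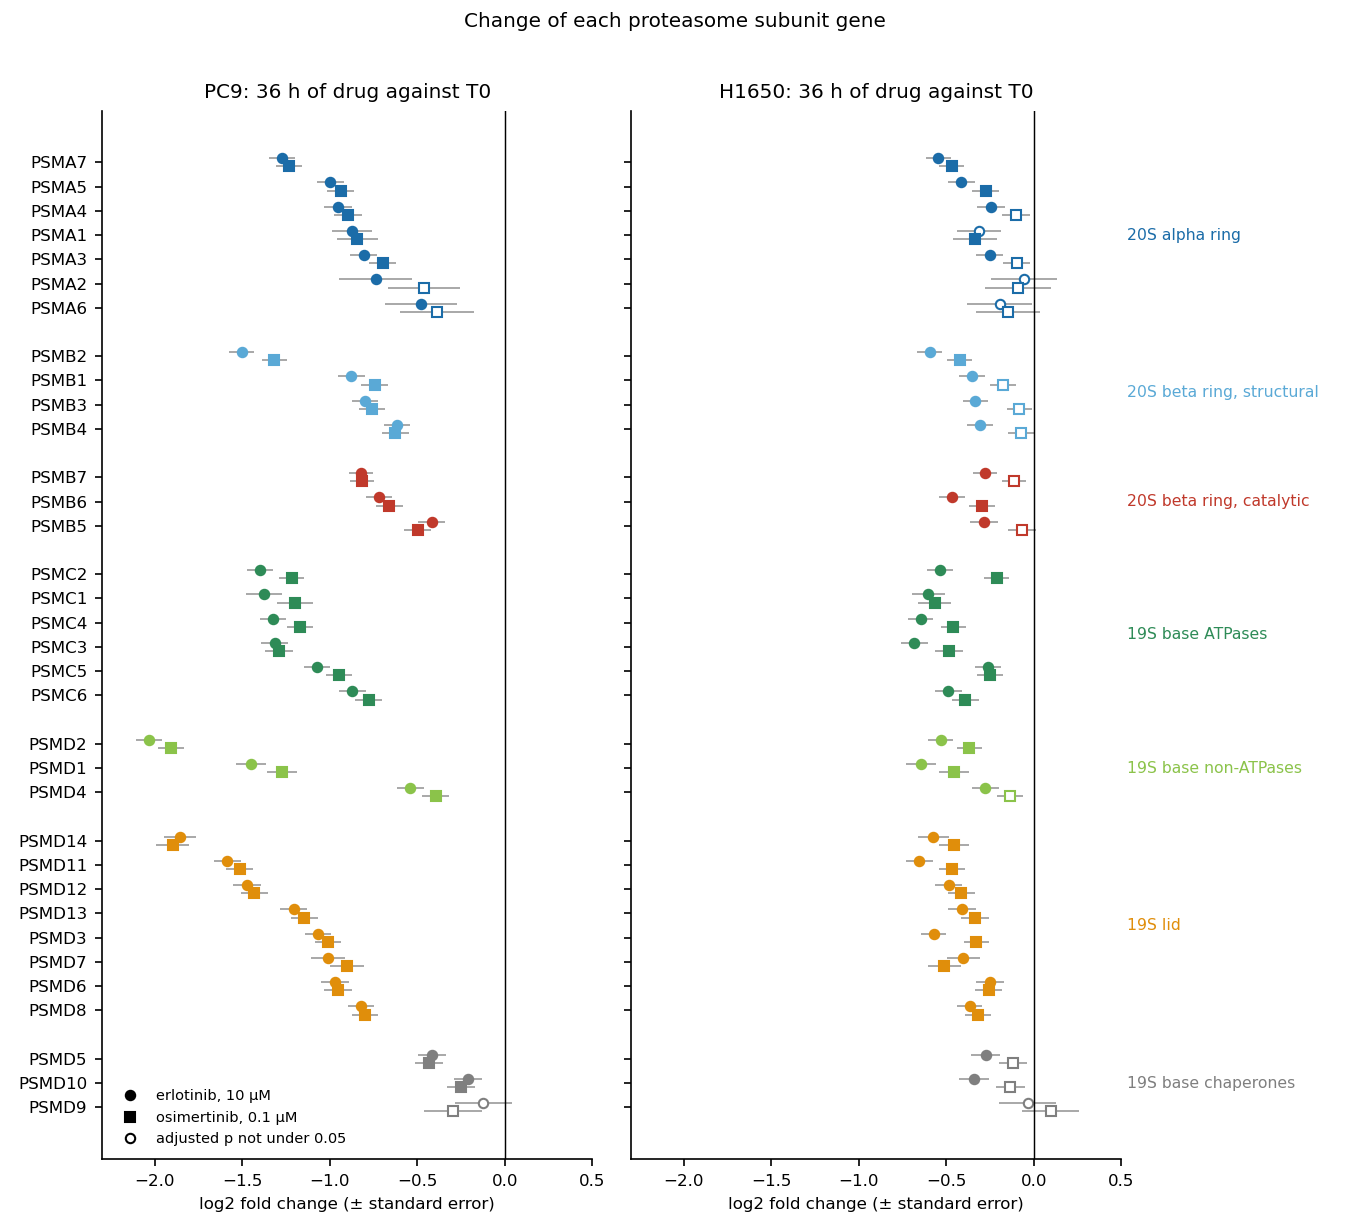
Fitted log2 fold change (horizontal axes, ± standard error) of each tested member after 36 h of drug against T0, in PC9 (left) and H1650 (right), ordered within each subcomplex by the erlotinib change in PC9. Circles are erlotinib, squares are osimertinib, and open symbols have an adjusted p of 0.05 or more; PSMD2 and PSMD14 have the lowest values in PC9, and PSMD9 and PSMD10 lie nearest to 0 there.

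Among the scaffolds of the 19S base, PSMD2 had the largest fall of all members in PC9 with each drug, but not in H1650. PSMD2 (ENSG00000175166, chromosome 3, 184298709 to 184309054 on the plus strand) encodes the scaffold that docks shuttle proteins carrying ubiquitinated cargo. In PC9 it stood at 1546 and 1623 CPM at T0, at 384 and 391 CPM with erlotinib, and at 405 and 441 CPM with osimertinib. In H1650 it stood at 391 and 386 CPM at T0, at 253 and 285 CPM with erlotinib, and at 303 and 298 CPM with osimertinib. PC9 at T0 thus stood apart from all other groups, and drug-treated PC9 cells reached the level that H1650 cells had at T0. PC9 changed by -2.03 ± 0.07 and -1.90 ± 0.07 on the log2 scale and H1650 by -0.53 ± 0.07 and -0.37 ± 0.07 (± SE), with edgeR adjusted p-values of 2.36e-19, 8.26e-19, 9.30e-07 and 0.00014.

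The other members of this group moved less than PSMD2 in PC9. PSMD1, the second large scaffold, fell by 1.45 and 1.27 in PC9 and by 0.64 and 0.46 in H1650 on the log2 scale, and its H1650 values were more negative than those of PSMD2. PSMD4, which binds ubiquitin chains and was at 191 and 184 CPM in PC9 at T0, was at 128 and 130 CPM with erlotinib and at 132 and 153 CPM with osimertinib. It fell by 0.54 and 0.40 in PC9 and by 0.28 in H1650 with erlotinib, and its change with osimertinib in H1650 was -0.14 (adjusted p = 0.16, edgeR).

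The 19S lid was called lower for 8 of 8 genes in each of the 4 comparisons. PSMD14 (ENSG00000115233, chromosome 2, 161308038 to 161411717 on the plus strand), the metalloprotease that releases ubiquitin from substrates before they enter the core, had the largest fall of the lid in PC9. Its levels in PC9 were 128 and 136 CPM at T0, 35.7 and 37.2 CPM with erlotinib, and 32.0 and 39.1 CPM with osimertinib. Its levels in H1650 were 110 and 122 CPM at T0, 73.2 and 82.9 CPM with erlotinib, and 84.9 and 84.5 CPM with osimertinib. The T0 levels of the lines were close, at a difference of -0.18 ± 0.09 (H1650 minus PC9, adjusted p = 0.06), whereas the drug libraries of PC9 lay below all drug libraries of H1650. PC9 changed by -1.85 ± 0.09 and -1.90 ± 0.09 and H1650 by -0.57 ± 0.09 and -0.46 ± 0.09. PSMD11 and PSMD12, structural subunits of the lid, followed with -1.58 and -1.47 in PC9 with erlotinib. PSMD8, also structural, changed the least of the lid in PC9, by -0.82 and -0.80. The lid in H1650 ranged from -0.65 (PSMD11) to -0.25 with erlotinib and from -0.51 (PSMD7) to -0.26 with osimertinib. PSMD7, the lid subunit that pairs with PSMD14, had the lowest CPM of the lid in PC9 at T0 and stood at 81.8 and 85.8 CPM in H1650 at T0 and at 55.2 and 62.4 CPM with osimertinib.

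The 6 ATPases of the base fell with both drugs in both lines. PSMC1 among them is reported below as uncertain, because most of its exon bases overlap a gene on the opposite strand. In PC9 they ranged from -1.40 (PSMC2) to -0.87 (PSMC6) with erlotinib and from -1.29 (PSMC3) to -0.78 (PSMC6) with osimertinib. In H1650 they ranged from -0.68 (PSMC3) to -0.26 (PSMC5) with erlotinib and from -0.56 (PSMC1) to -0.21 (PSMC2) with osimertinib. Each ATPase passed the test in each of the 4 comparisons. PSMC2 stood at 239 and 251 CPM in PC9 at T0 and at 90.6 and 95.4 CPM with erlotinib. PSMC3 stood at 192 and 193 CPM in H1650 at T0 and at 117 and 123 CPM with erlotinib, the largest fall of any member in that comparison.

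In the 20S core the 3 catalytic genes had smaller falls in PC9 than most ATPase and lid genes, a difference between subcomplexes that was not tested. PSMB5, which holds the chymotrypsin-like site and is the main target of the inhibitor bortezomib, was at 111 and 118 CPM in PC9 at T0, at 83.3 and 88.6 CPM with erlotinib, and at 80.0 and 82.6 CPM with osimertinib. In H1650 it was at 69.6 and 65.7 CPM at T0, at 56.7 and 54.5 CPM with erlotinib, and at 67.2 and 61.9 CPM with osimertinib, where the libraries overlapped those at T0. The changes of PSMB5 were -0.42 ± 0.08, -0.50 ± 0.08, -0.28 ± 0.08 and -0.07 ± 0.08, and the last did not pass the test (adjusted p = 0.55, edgeR). PSMB6, with the caspase-like site, fell in all 4 comparisons, by 0.72, 0.66, 0.47 and 0.30. PSMB7, with the trypsin-like site, fell by 0.82 with both drugs in PC9 and by 0.28 with erlotinib in H1650, and was at -0.11 with osimertinib in H1650 (adjusted p = 0.22). As sums, the catalytic genes kept 0.612 of their T0 level in PC9 with erlotinib, while the ATPases kept 0.427, the lid 0.426 and the base non-ATPases 0.302. In H1650 the same ratios were 0.787, 0.683, 0.717 and 0.706. The other lists of the core, the alpha ring and the structural beta genes, kept 0.486 and 0.490 in PC9 with erlotinib. In H1650 they kept 0.747 and 0.760. PSMD2 made up 1584 of the 2048 CPM of the base non-ATPases in PC9 at T0.

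The wall of the core gave the widest range among the beta subunits. PSMB2 fell by 1.50 and 1.32 in PC9, from 430 and 426 CPM at T0 to 147 and 155 CPM with erlotinib, and by 0.59 and 0.42 in H1650. PSMB4 fell by 0.62 with both drugs in PC9, and PSMB1 and PSMB3 lay between these values. In H1650 with osimertinib, PSMB2 alone of these 4 genes passed the test. In the alpha ring, PSMA7 had the highest level and the largest fall, from 381 and 368 CPM to 160 and 151 CPM with erlotinib in PC9 (-1.27) and from 515 and 449 CPM to 330 and 331 CPM in H1650 (-0.55). The 7 tested alpha genes ranged from -1.27 to -0.48 in PC9 with erlotinib. There 7 of 7 fell, against 29.1% of all tested genes, with adjusted p-values of up to 0.047 (edgeR). They ranged from -0.47 to -0.09 in H1650 with osimertinib, where 3 of 7 fell, against 17.9%. PSMA1, PSMA2 and PSMA6 are reported below as uncertain because of low counts and shared exons. PSMA2 was the alpha gene nearest to no change in H1650 with erlotinib, at -0.06.

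Of the base chaperones, PSMD9 and PSMD10 had the values nearest to 0 in PC9, and PSMD5 lay among the smaller falls there. PSMD10, which is also known as the oncoprotein gankyrin, was at 93.8 and 98.1 CPM in PC9 at T0 and at 82.2 and 83.8 CPM with erlotinib, a change of -0.21 ± 0.08 (adjusted p = 0.026, edgeR). That call was lost with upper quartile normalization (adjusted p = 0.18), with a minimum of 10 counts in every library (0.065), and without 3 PC9 libraries in turn, T0 replicate 2 (0.15), erlotinib replicate 1 (0.097) or erlotinib replicate 2 (0.059). PSMD10 was at -0.25 with osimertinib in PC9 (adjusted p = 0.0090), fell by 0.34 with erlotinib in H1650 (adjusted p = 0.0019), and was at -0.13 with osimertinib there (adjusted p = 0.23, edgeR). PSMD5 changed by -0.42 and -0.43 in PC9 and by -0.27 and -0.12 in H1650, the last with an adjusted p of 0.28. PSMD9 gave -0.12, -0.29, -0.04 and 0.10, and none passed the test. The 3 chaperone genes summed to 0.811 of T0 in PC9 with erlotinib and to 0.820 in H1650.

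Whether the lines differed in their response was tested as the difference of the changes, H1650 minus PC9. With erlotinib 26 of 34 members had a significantly smaller fall in H1650, against 21.1% of all tested genes called in that direction, and with osimertinib 29 of 34, against 21.5%. The median difference of the members was 0.59 and 0.67 on the log2 scale, beside -0.03 with each drug over all tested genes. No member differed the other way by edgeR, by DESeq2, or at an unadjusted p under 0.05, whereas 19.8% and 20.5% of all tested genes did by edgeR, and DESeq2 called 26 and 27 members. All 8 lid genes, all 6 ATPases and all 4 structural beta genes were among those called with both drugs. The largest differences were those of PSMD2, at 1.50 ± 0.10 with erlotinib (adjusted p = 8.77e-13, edgeR) and 1.54 ± 0.10 with osimertinib, and of PSMD14, at 1.28 ± 0.13 and 1.44 ± 0.13. PSMB5 differed by 0.13 ± 0.11 with erlotinib (adjusted p = 0.36), so that a difference between the lines was not detected, and by 0.43 ± 0.11 with osimertinib (adjusted p = 0.0022). PSMB6 gave 0.25 and 0.36, and PSMD4 gave 0.26 with each drug, with an adjusted p of 0.05 or more for PSMD4 in both and for PSMB6 with erlotinib. PSMD10 was the only member with a more negative change in H1650 with erlotinib, at a difference of -0.13 ± 0.12 (adjusted p = 0.39). The lowest differences with osimertinib were 0.12 for PSMD10 and 0.24 for PSMA6.

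**Figure D3:**
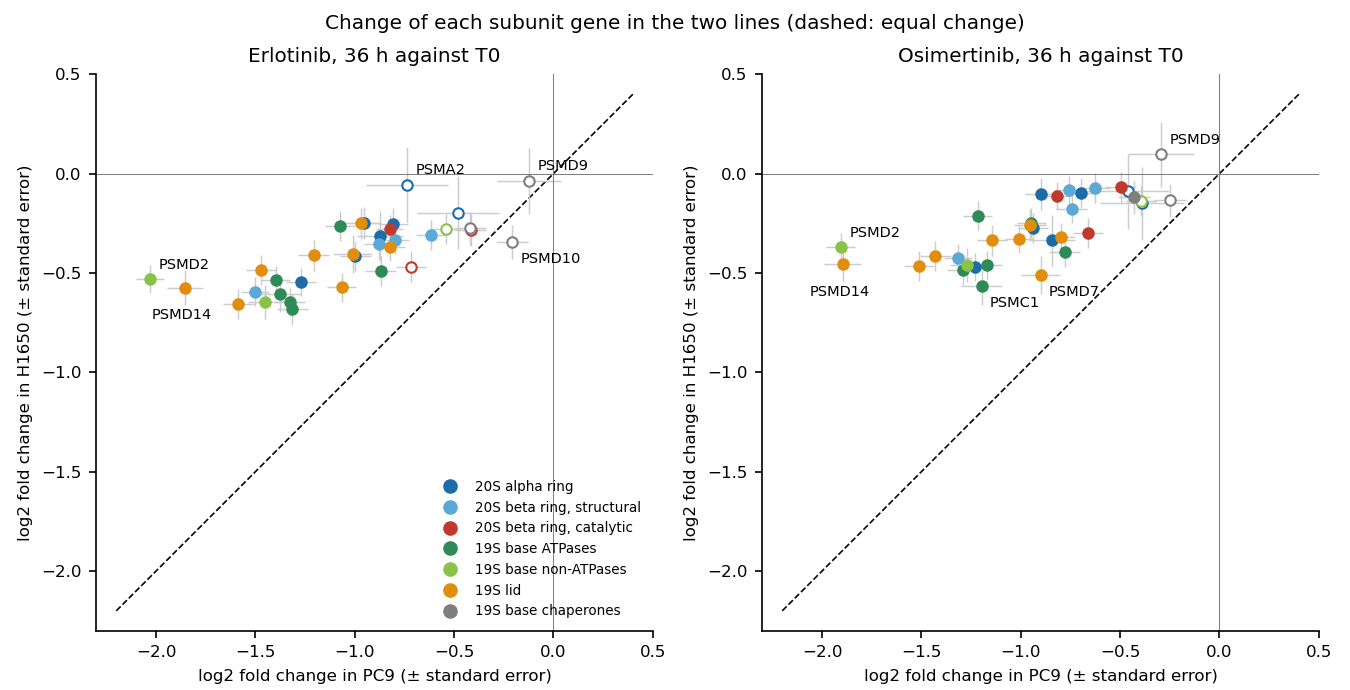
Log2 fold change of each tested member in PC9 (horizontal) and H1650 (vertical), each ± standard error, for erlotinib (left) and osimertinib (right), on equal axes with a dashed line of equal change. Filled symbols have a drug-by-line difference with an adjusted p under 0.05; all members but PSMD10 lie above the dashed line with erlotinib, and all 34 with osimertinib.

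The deeper fall in PC9 started from a higher level. At T0, 23 of 34 members were lower in H1650 than in PC9, against a background of 33.8% of all tested genes, and 6 were higher, against 35.8%. The median difference of the members, H1650 minus PC9, was -0.43, beside 0.04 over all tested genes. PSMD2 differed the most, at -2.03 ± 0.07, followed by PSMD13 of the lid at -1.28, PSMA1 at -1.15, PSMB2 at -1.08 and PSMB7 at -1.05. The 6 genes higher in H1650 were PSMC1 (0.63), PSMA6 (0.61), PSMA7 (0.37), PSMB1 (0.25), PSMB3 (0.24) and PSMC4 (0.23). Of the genes named here, PSMA1, PSMA6 and PSMC1 are reported below as uncertain because their exons overlap other genes. The 3 catalytic genes were all lower in H1650, by 0.58 to 1.05. The summed level of the members in H1650 was 0.643 of that in PC9, and 0.752 without PSMD2. After erlotinib the sums were 3183 ± 63.1 CPM in PC9 and 3437 ± 103 CPM in H1650 (SD, n = 2), so that the lines lay closer together with drug than at T0. The T0 difference and the drug changes share the same T0 libraries.

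The drugs were compared within each line, at doses of 10 μM for erlotinib and 0.1 μM for osimertinib. In PC9 none of 34 members differed between them by edgeR, where 16.6% of all tested genes did. At an unadjusted p under 0.05 there were 4 members, all higher with osimertinib, and DESeq2 called 1. That gene was PSMB2, at 147 and 155 CPM with erlotinib and 162 and 182 CPM with osimertinib (log2 difference 0.19 ± 0.07, edgeR adjusted p = 0.079). The log2 differences in PC9 ran from -0.17 (PSMD9) to 0.28 (PSMA2), with standard errors of up to 0.22. In H1650, 4 of 34 members were higher with osimertinib, against 5.02% of all tested genes. These were PSMC2 (0.33), PSMB3 (0.25), PSMB4 (0.24) and PSMD3 (0.24). Their number ranged from 0 to 4 when single libraries were left out, with 0 or 1 when either H1650 erlotinib or either H1650 osimertinib library was left out. The median difference of the members was 0.15 in H1650 and 0.06 in PC9, beside 0 and 0.004 over all tested genes. Without single libraries, the member median ranged from 0.11 to 0.19 in H1650 and from 0.004 to 0.11 in PC9.

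Levels per length were compared before drug, as normalized CPM per kb of the gene length given in the table. In PC9 at T0 the highest were PSMD2 at 319 CPM per kb, PSMA7 at 214 CPM per kb and PSMB7 at 176 CPM per kb. In H1650 the highest were PSMA7 at 275 CPM per kb, PSMB3 at 137 CPM per kb and PSMB4 at 105 CPM per kb, and PSMD2 was at 78.3 CPM per kb. At the lower end, PSMA6, PSMD9, PSMA2 and PSMA1 lay between 0.816 and 9.32 CPM per kb in PC9 and between 1.01 and 4.18 CPM per kb in H1650. As proteins, the alpha subunits are held by the core in equal number, and protein was not measured here.

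These 4 genes share a feature of the annotation. In GENCODE 29 (GRCh38), they are the only members with exonic bases that also belong to another gene on the same strand: AC018523.2 for PSMA1 (814 bases), AC010132.3 for PSMA2 (781), AL121594.1 for PSMA6 (919) and WDR66 with AC069503.2 for PSMD9 (1743). In that order, these bases were 24.7%, 14.6%, 14.1% and 19.9% of the exon bases of the gene. A further 8 members overlapped genes on the opposite strand only, and lay between 6.88 and 53.3 CPM per kb in PC9 at T0. The largest overlap was 4671 bases of PSMC1 with NRDE2, 75.8% of the exon bases of PSMC1. NRDE2 had 126 to 428 counts per library. PSMD7 followed with 30.7% of its exon bases. The 22 tested members without overlap lay between 18.4 and 319 CPM per kb. How reads in shared exons were assigned is not given in the sources used here, and the part of the overlap in the low counts was not tested. The 4 genes are reported as uncertain for this reason, and so is PSMC1, since strandedness is not given. The 4 genes with same-strand overlap rested on 65 to 617 reads per library. Among the other tested members the lowest count in any library was 347, for PSMC1.

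**Figure D4:**
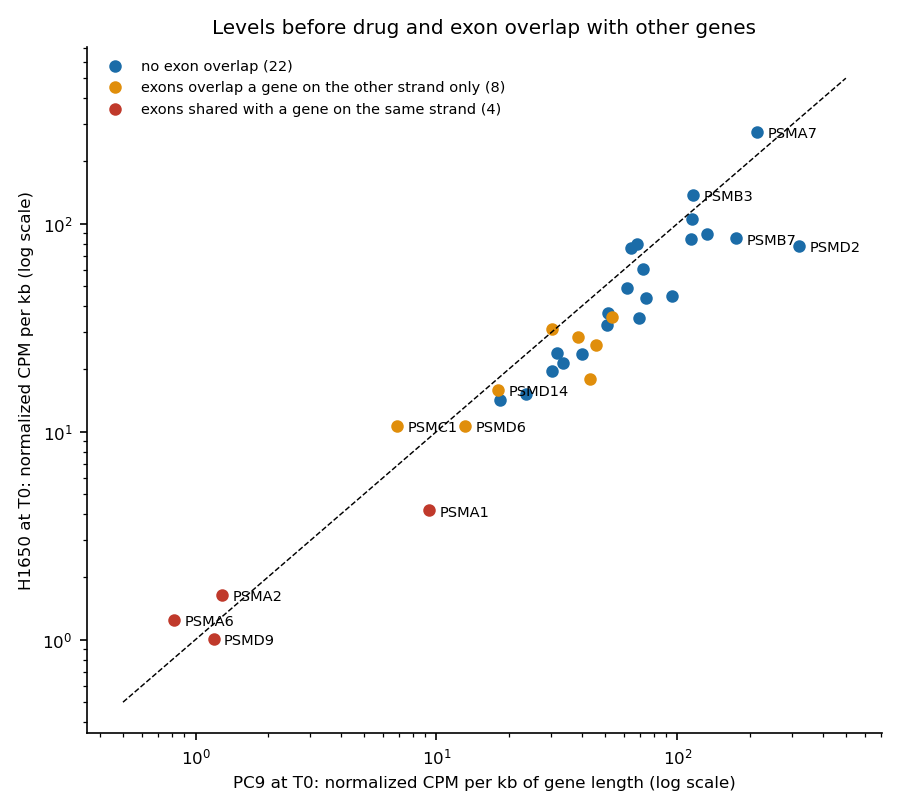
Normalized CPM per kb of gene length at T0 in PC9 (horizontal) and H1650 (vertical) for the 34 tested members, both axes on a log scale, as means of 2 libraries; the dashed line marks equal levels. Colors give exon overlap with another GENCODE gene; the 4 genes that share exons with a gene on the same strand lie at the lower left, and PSMD2 lies farthest below the line.

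The genes that encode the inducible catalytic subunits moved the other way. PSMB8, PSMB9 and PSMB10 replace PSMB5, PSMB6 and PSMB7 in the immunoproteasome, a form that is known to be induced by interferons and to favor antigen processing. PSMB8 rose by 0.76 and 0.85 in PC9 and by 0.82 and 1.20 in H1650. PSMB9 rose by 1.84 and 2.16 in PC9 and by 0.62 and 0.96 in H1650. PSMB10 rose by 2.24 and 2.41 in PC9, from 4.34 and 4.99 CPM at T0 to 22.8 and 21.3 CPM with erlotinib, and by 1.25 and 1.48 in H1650. PSME1, which with PSME2 forms the PA28 activator, rose by 0.92 to 1.05 in the 4 comparisons, whereas PSME2 fell by 0.21 and 0.26 in PC9 and rose by 0.28 and 0.69 in H1650. Per length, PSMB8 was at 13.6% ± 1.58 of PSMB5 in PC9 at T0, at 30.7% ± 2.55 with erlotinib and at 34.6% ± 2.59 with osimertinib (SD, n = 2). In H1650 the same percentages were 20.8 ± 0.855, 44.6 ± 2.88 and 49.9 ± 0.874. PSMB10 went from 1.63% to 13.7% of PSMB7 in PC9 with erlotinib and from 8.93% to 25.6% in H1650. PSMB9 went from 1.91% to 11.2% of PSMB6 in PC9 and from 4.85% to 10.2% in H1650. In each pair the constitutive gene kept the higher level per length in every library.

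**Figure D5:**
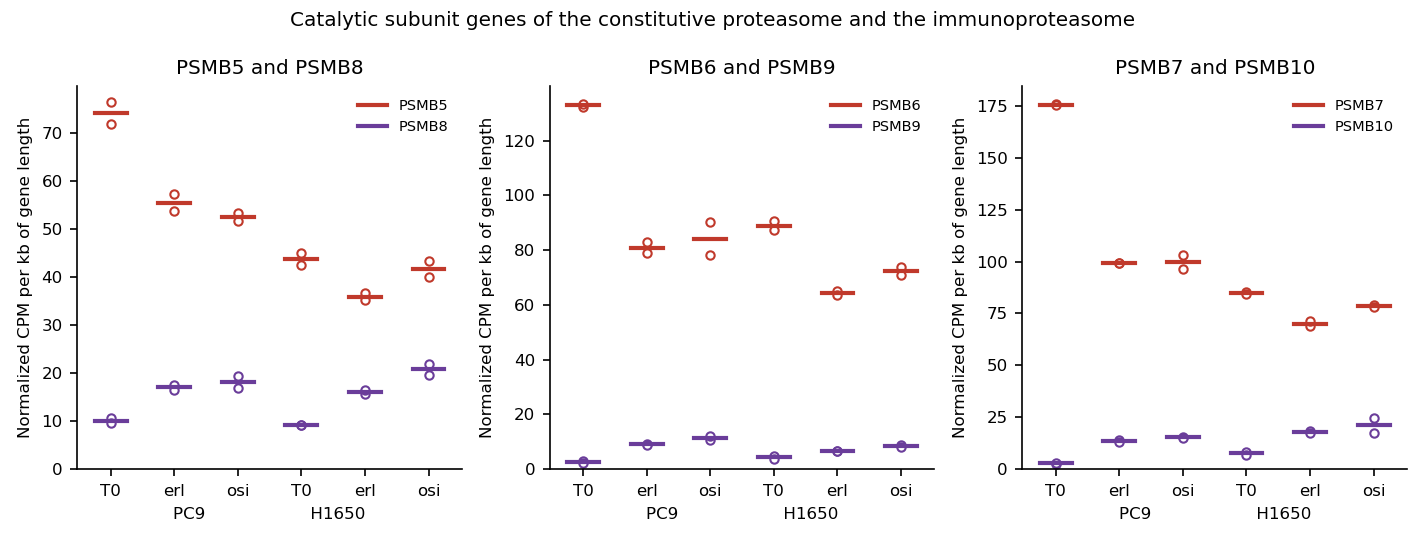
Normalized CPM per kb of gene length (vertical axes, from 0) of the 3 constitutive catalytic genes (red) and the inducible gene that replaces each (purple), in each library of the 6 groups (erl, erlotinib; osi, osimertinib). Circles are libraries and bars are group means (n = 2); the red genes are lower and the purple genes higher with drug than at T0, and PSMB5 in H1650 with osimertinib overlaps T0.

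Other genes of the pathway were examined as lists. Of the subunits with other names, ADRM1, the ubiquitin receptor at the tip of the base, fell by 1.00 and 0.95 in PC9 and by 0.44 and 0.35 in H1650, and SEM1, a small lid subunit, fell by 0.22 in PC9 and 0.31 in H1650 with erlotinib and was at -0.11 and -0.08 with osimertinib (adjusted p = 0.28 and 0.56, edgeR). Of all tested genes, 29.1% and 28.7% were called lower in PC9 and 18.5% and 17.9% in H1650, for erlotinib and osimertinib. Beside these shares, 5 of 7 assembly factors fell with each drug in PC9, and 3 and 4 fell in H1650. POMP, the maturation factor of the core, fell by 1.07 and 0.85 in PC9 and by 0.44 and 0.41 in H1650, and PSMG1, a chaperone of the alpha ring, fell by 1.40 and 1.74 in PC9 and by 0.58 with osimertinib in H1650. The highest values of this list did not pass the test: PAAF1 at 0.05 and -0.13 in PC9, PSMG4 at 0.05 with erlotinib in H1650, and PSMG2 at 0.13 with osimertinib in H1650. Of 6 other activators and regulators, 6 fell with each drug in PC9, and 3 and 5 fell in H1650. PSME3, the nuclear activator of the core, was the lowest in each, at -1.01 and -1.07 in PC9 and at -0.45 and -0.54 in H1650. Highest were PSMF1 (-0.29, PC9 erlotinib), PSME4 (-0.47, PC9 osimertinib) and PSME3IP1 (0.03 and -0.05 in H1650, neither called).

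Of 11 enzymes and shuttles that bind the proteasome, 8 fell and 2 rose with each drug in PC9, and 6 fell and 1 rose with each in H1650. The deubiquitinase UCHL5, which docks on ADRM1, fell by 1.82 and 1.89 in PC9 and by 0.46 and 0.52 in H1650, where the ubiquitin ligase UBE3C had the lowest values of the list, -0.62 and -0.60. ZFAND5, a proteasome activator induced in muscle wasting, rose by 1.26 and 1.48 in PC9 and by 0.20 and 0.60 in H1650. All 6 genes of the p97 unfoldase and its cofactors fell with each drug in PC9, with FAF1 the lowest at -1.59 and -1.88 and NPLOC4 (-0.39) and FAF2 (-0.25) the highest, and 6 and 4 fell in H1650. The range there was from -0.63 (NSFL1C) to -0.19 (NPLOC4) with erlotinib and from -0.62 (FAF1) to -0.08 (FAF2, not called) with osimertinib.

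The list of NRF1 and NRF2 regulators, which holds transcription factors of the subunit genes, was divided. NFE2L1 itself rose by 0.44 with erlotinib in PC9 and by 0.47 and 0.33 in H1650, and was at 0.07 with osimertinib in PC9 (adjusted p = 0.40, edgeR). NFE2L2 rose by 0.59 and 0.66 in PC9, fell by 0.31 with osimertinib in H1650, and was at -0.15 with erlotinib there (adjusted p = 0.12). Among the small MAF partners of both factors, MAFF fell by 2.07 and 1.66 in PC9, MAFK fell by 0.33 with erlotinib in H1650, and MAFG fell by 0.37 with osimertinib in H1650. Of the 8 genes, 3 rose and 1 fell with erlotinib in PC9, 2 rose and 1 fell with osimertinib, and in H1650 1 rose and 1 fell with erlotinib and 1 rose and 2 fell with osimertinib. Of all tested genes, 32.7% were called higher with each drug in PC9, and 29.1% and 28.7% lower. In H1650, 18% and 17.8% were called higher and 18.5% and 17.9% lower. The counts of this list are therefore not reported as differing from those of all tested genes.

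Promoter sequences were read from RefSeq (GRCh38.p14) for 30 of 35 members, as the 250 bases before the annotated start. PSMA7, PSMB1, PSMB6, PSMB7 and PSMD4 had no entry. The antioxidant response element core TGACNNNGC, to which NRF1 and NRF2 bind with MAF partners, was sought on both strands and was found in 5 of 30 (16.7%), beside 3013 of 27305 promoters of the same length. The CCAAT box was found in 14 of 30 (46.7%), beside 33.0%, the GC box GGGCGG in 19 of 30 (63.3%), beside 42.3%, and TATAAA in 5 of 30 (16.7%), beside 11.1%. The 5 members with the antioxidant response element core were PSMB3, PSMD3, PSMD5, PSMD9 and PSMD12, and their changes in PC9 with erlotinib ran from -1.47 to -0.12. The windows of PSMD2 and PSMD14, which fell the most in PC9, are printed beside those of PSMD12 and PSMB3, which hold this core and fell, and PSMD9, which holds it on both strands and was called in no drug comparison.
PSMD2: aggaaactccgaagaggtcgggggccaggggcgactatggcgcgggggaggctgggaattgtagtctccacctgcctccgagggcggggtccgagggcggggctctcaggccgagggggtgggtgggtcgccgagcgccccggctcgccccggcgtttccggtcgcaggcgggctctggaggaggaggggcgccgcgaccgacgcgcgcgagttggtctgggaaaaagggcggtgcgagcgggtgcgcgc
PSMD14: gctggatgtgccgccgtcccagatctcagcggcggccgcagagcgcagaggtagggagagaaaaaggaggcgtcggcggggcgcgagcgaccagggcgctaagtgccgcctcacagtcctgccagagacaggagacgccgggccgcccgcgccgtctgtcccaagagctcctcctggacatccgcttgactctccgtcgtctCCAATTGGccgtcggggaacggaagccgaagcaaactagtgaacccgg
PSMD12: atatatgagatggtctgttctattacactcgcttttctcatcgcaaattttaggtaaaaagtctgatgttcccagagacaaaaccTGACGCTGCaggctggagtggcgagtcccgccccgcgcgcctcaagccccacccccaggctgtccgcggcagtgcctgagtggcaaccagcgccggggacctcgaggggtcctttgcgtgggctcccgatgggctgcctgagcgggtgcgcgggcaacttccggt
PSMB3: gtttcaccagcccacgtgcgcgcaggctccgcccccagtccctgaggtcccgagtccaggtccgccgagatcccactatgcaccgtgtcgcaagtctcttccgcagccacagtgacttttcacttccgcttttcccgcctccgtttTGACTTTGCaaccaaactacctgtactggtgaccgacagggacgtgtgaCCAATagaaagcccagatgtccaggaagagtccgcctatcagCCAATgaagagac
PSMD9: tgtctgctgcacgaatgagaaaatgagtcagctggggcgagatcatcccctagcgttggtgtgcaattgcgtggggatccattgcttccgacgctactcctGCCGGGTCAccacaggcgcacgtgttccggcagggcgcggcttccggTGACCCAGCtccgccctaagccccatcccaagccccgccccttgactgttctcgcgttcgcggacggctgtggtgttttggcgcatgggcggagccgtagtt
Each is given from 5′ to 3′ on the strand of the gene, and capitals mark TGACNNNGC and CCAAT on either strand. In order, the windows are chr3:184298991-184299240 (plus strand), chr2:161308175-161308424 (plus), chr17:67366578-67366827 (minus), chr17:38752491-38752740 (plus) and chr12:121888540-121888789 (plus). The windows of PSMD2 and PSMD14 lie within the GENCODE gene spans and the other 3 overlap them in part, since the first starts in GENCODE differ from those of RefSeq. PSMD2 has neither motif in its window and PSMD14 has a CCAAT box read on both strands, CCAATTGG. A match says only that these letters are present.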

How the data were processed

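The authors deposited a table of read counts per gene for 12 polyA RNA libraries, with the gene name, the Ensembl identifier and a gene length. They aligned the reads and counted them within the DolphinNext pipeline and compared groups with DESeq2, and the labels give GRCh38 as the genome build. Versions, the counting settings and strandedness are not given in the sources used here. The count columns were used as deposited, and the length column, a value of the authors and not a measurement, was used only for levels per kb. Counts were normalized with TMM, low counts were filtered with filterByExpr, and 1 quasi-likelihood model over all 6 groups was fitted with edgeR (4.0.16, R 4.3.3), with p-values adjusted over 19108 genes by the Benjamini-Hochberg method and an adjusted p under 0.05 as the threshold. There were 9 comparisons, namely T0 with each drug within a line, the difference of these changes between the lines, H1650 with PC9 at T0, and osimertinib with erlotinib within a line. The fit had 6 residual degrees of freedom and a biological coefficient of variation of 0.0656. Counts of replicates differed by 3.86 to 6.84 chi-square units per gene, more than the value of 1 that sampling noise alone would give, and all libraries were kept as separate samples. Fitted values are log2 fold changes with standard errors, and CPM values are normalized. Exon overlaps were taken from GENCODE 29. The scripts were tested on simulated counts.

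Genes named were the member below the filter, PSMB5, PSMB6, PSMB7, PSMD4 and PSMD14, the 2 highest and 2 lowest log2 fold changes among the members in each comparison, the highest and lowest member of each subcomplex, and, of the pathway lists, the highest and lowest in each drug comparison and a set of immunoproteasome and NRF genes. The further members named (among them PSMD1, PSMD5, PSMD8, PSMD12 and PSMC6), the genes next to PSMD2, and the catalytic pairs were picked with their values in view. The members and lists were chosen with earlier results of these data known. Alternatives were RLE and upper quartile normalization, DESeq2 (1.42.0), no filter or a minimum of 10 counts, a threshold of 0.01, separate fits per line, a replicate block, added pseudogene reads, shares of all counts, and each library left out. Leaving out members that overlap another gene was chosen after seeing the data. A further list of pathway genes is not reported here.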

Additional observations from a re-analysis of the deposited data

Results flagged for a closer look

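The responses of the lines differed by a test of the difference itself (H1650 change minus PC9 change, edgeR) for 26 members with erlotinib and 29 with osimertinib. Among the members named, the differences with erlotinib were 1.50 for PSMD2, 1.28 for PSMD14 and 0.55 for PSMB7. With osimertinib they were 1.54 for PSMD2, 1.44 for PSMD14, 0.70 for PSMB7, 0.43 for PSMB5 and 0.36 for PSMB6. All were positive, so the fall was smaller in H1650. POMP, the maturation factor of the core, differed in the same direction, by 0.63 with erlotinib and 0.44 with osimertinib.

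The genes of the inducible form did not share 1 direction. PSMB9 rose less in H1650, by -1.21 with each drug, and so did PSMB10, by -0.99 with erlotinib and -0.93 with osimertinib. PSMB8 rose more in H1650 with osimertinib, by 0.34. PSME2, which fell in PC9 and rose in H1650, differed by 0.49 and 0.95. Of the regulators, NFE2L2 differed by -0.74 and -0.97, and NFE2L1 by 0.25 with osimertinib. The groups held 2 libraries each, too few to test single libraries as outliers.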

How the results depend on the processing

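The replicate numbers were taken as names and not as pairs in the main fit. Deviations of same-numbered libraries from their group means correlated between -0.0671 and 0.0947 over 15 pairs of groups and all tested genes. This measure gives noisy low-count genes the same weight as others, so it cannot decide whether same-numbered libraries share a batch. A block raised the number of all genes called in every comparison, from 1672 to 2670 between the drugs in H1650 and from 3163 to 4166 in PC9. With a replicate block, 3 members were called between the drugs in PC9 and 11 in H1650, in place of 0 and 4, and the other counts of members called moved by less than 1.5 times.

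In the comparison of the drugs, DESeq2 and the minimum of 10 counts each called 1 member in PC9, and the threshold of 0.01 called 1 in H1650. Leaving out single libraries gave 0 to 1 in PC9 and 0 to 4 in H1650. The median log2 fold change in PC9 with erlotinib, -0.96, was -0.87 with upper quartile normalization, -1.02 with no filter, -0.91 with the minimum of 10 counts, -1.003 with a fit per line, -0.87 without members that overlap another gene, and -1.02 to -0.88 without single libraries. That in H1650 with erlotinib, -0.38, was -0.44 to -0.34 without single libraries. The median drug-by-line difference with erlotinib, 0.59, was 0.51 with upper quartile normalization, 0.54 without overlapping members, and 0.56 to 0.67 without single libraries. The median between the lines at T0, -0.43, was -0.48 with no filter and -0.53 without overlapping members. Without these members, 22 remained, of which 12 were called in H1650 with osimertinib (median -0.24) and 17 in the drug-by-line difference with erlotinib. As shares of all counts, the sums were 0.462, 0.797 and 0.850 of T0 (PC9 erlotinib, H1650 erlotinib, H1650 osimertinib), and H1650 was 0.667 of PC9. Upper quartile normalization moved the median of all genes in PC9 with erlotinib from 0.07 to 0.17.

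Signs turned for uncalled values near 0. With no filter, PAAF1 was at -0.0063 (PC9 erlotinib) and NFE2L1 at -0.013 (PC9 osimertinib). Without single libraries, PSMD9 ranged from -0.35 to 0.078 (PC9 erlotinib), -0.17 to 0.12 (H1650 erlotinib), -0.035 to 0.26 (H1650 osimertinib), -0.12 to 0.31 (drug-by-line difference, erlotinib) and -0.37 to 0.050 (osimertinib against erlotinib, PC9). Between the drugs, PSMA2 ranged from -0.17 to 0.58 in PC9 and -0.19 to 0.11 in H1650, and PSMD7 from -0.26 to 0.077 in H1650. Of the pathway genes, PAAF1 ranged from -0.033 to 0.14 (PC9 erlotinib), SEM1 from -0.26 to 0.022 (PC9 osimertinib), PSMG4 from -0.026 to 0.11, and PSME3IP1 from -0.024 to 0.091 (H1650 erlotinib) and -0.11 to 0.0044 (H1650 osimertinib). Of these, SEM1 passed the test once, without PC9 osimertinib replicate 2 (adjusted p = 0.031, edgeR).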

Other observations

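The genes that neighbor PSMD2 on chromosome 3 also differed between the lines. They were taken as the 5 tested genes on either side of it in GENCODE 29, after its values were seen. At T0, 7 of the 10 were called lower in H1650 than in PC9 (edgeR, adjusted p under 0.05), beside 33.8% of all tested genes, and CAMK2N2 and CHRD were called higher. ALG3, an enzyme of N-glycan assembly, was at 167 CPM in PC9 and 64.6 CPM in H1650 (-1.37). EIF4G1, the scaffold of the translation initiation complex, was at 1763 CPM and 1088 CPM (-0.70). POLR2H, a subunit shared by the RNA polymerases, was at 100.3 CPM and 50.7 CPM (-0.98).

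With erlotinib in PC9, 6 of the 10 fell, beside 29.1% of all tested genes, and CHRD was called higher from 0.0252 CPM, a level below the detection limit. EIF4G1 fell by 1.21 and 1.10 in PC9 and by 0.55 and 0.36 in H1650, for erlotinib and osimertinib, and ALG3 fell by 1.11 and 0.84 in PC9. CAMK2N2, the tested gene just before PSMD2, fell by 2.19 and 2.05 in PC9 from 4.97 CPM at T0. EEF1AKMT4, the next, fell by 1.84 and 1.57 in PC9 from 15.6 CPM, and neither gene was called in H1650 with drug. CLCN2 fell by 0.72 and 0.82 and POLR2H by 0.20 and 0.31 in PC9. In H1650 with erlotinib, 2 of the 10 fell and POLR2H rose (0.23), beside 18.5% of all tested genes called lower and 18% higher. With osimertinib in H1650, 1 fell and 4 were called higher, beside 17.9% lower and 17.8% higher. Among those higher were POLR2H (0.47), CLCN2 (0.43) and ABCF3 (0.21). ABCF3 lay at -0.11 and 0.01 in PC9, neither called.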
